A study of Mus musculus with 10 samples.

Results

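The EGF family ligands and ErbB receptors were followed in sorted cells of the mouse mammary gland. The 10 genes were chosen by name: the ligands Areg, Btc, Ereg, Hbegf, Tgfa and Egf and the receptors Egfr, Erbb2, Erbb3 and Erbb4. They were 10 of 49671 gene identifiers counted, and all 10 were among the 19757 genes with enough counts to be tested. Bulk RNA of 5 populations was sequenced with 2 libraries each. Basal cells (BC) and luminal cells (LC) carry no treatment label, and their second libraries are named WT. The other populations are marked by Tomato, a red fluorescent reporter, and carry the treatment label luminal cell ablation: basal (TBC), hybrid (THC) and luminal (TLC). Strain, age, the driver of the reporter, the way luminal cells were ablated, the interval after it and the antibodies of the sort were not stated in the labels. Each Tomato population therefore differs from BC and LC in ablation, in Tomato marking and in any difference of mouse line, which cannot be told apart.

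The ligands are made as membrane-bound precursors that proteases cut free, and the soluble forms act on the same or neighbouring cells. Areg, Tgfa and Egf bind EGFR, while Btc, Hbegf and Ereg also bind ERBB4. ERBB2 has no known ligand and acts as a partner of the other receptors, and ERBB3 has a weak kinase and binds neuregulins. In the mammary gland, amphiregulin, the product of Areg, is induced by oestrogen in hormone-sensing luminal cells and is required for the ducts to grow out at puberty. EGFR is most studied there on stromal and basal cells, and ERBB4 takes part in lactation.

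The libraries held 2757773 to 13685674 counts on genes, fewest in the first THC library, and in every population the second library was the deeper. Values are CPM (counts scaled to a common library size with normalization factors) and are given for the first and then the second library of a population. An amount of 3 counts was worth 1.16 CPM in the first THC library and 0.202 to 0.588 CPM in the others. Lineage markers followed the labels: the summed level of 10 basal markers was 9760 and 15100 CPM in BC, 17500 and 12900 in TBC, 5540 and 4780 in THC, 1190 and 760 in TLC and 208 and 119 in LC. The summed level of 10 luminal markers was 1700 and 1270 CPM in BC, 1340 and 886 in TBC, 4570 and 3180 in THC, 6230 and 4990 in TLC and 10500 and 8270 in LC. Summed markers of 4 other cell types were highest in THC. The 8 fibroblast markers summed to 931 and 1970 CPM against 167 to 678 in the other libraries, and 8 endothelial markers to 514 and 462 CPM against 43.8 to 363. Much of the fibroblast sum in THC was Col1a1 (244 and 720 CPM), Col3a1 (320 and 541) and Col1a2 (177 and 426). Lum and Dpt were also highest in THC, but Pdgfra was highest in BC (69.8 and 51.4 CPM, against 24.8 and 31 in THC). Dcn was highest in LC (269 and 274 CPM, against 57.7 and 152 in THC), and mean Fbln1 in TBC (83.9 CPM against 73.5 in THC). For 8 immune markers the sums were 326 and 139 CPM in THC against 46.7 to 100 elsewhere, and for 6 pericyte markers 255 and 173 CPM against 11.6 to 161. The summed level of 5 adipocyte markers was 149 and 93.1 CPM in THC against 7.97 to 161 elsewhere, highest in the first BC library. In THC nearly all of it was Fabp4 (149 and 92.9 CPM), while Adipoq, Plin1 and Cidec were at 0 in both THC libraries. The part of such cells in the THC results below was not tested. In bulk RNA, fewer cells of a type and less RNA per cell cannot be told apart.

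Areg, Ereg and Btc lie together on mouse chromosome 5 with Epgn, a further ligand of the family, within 375.5 kb (GRCm38, GENCODE M21). The order along the plus strand is Epgn (chr5:91027464-91035215), Ereg (chr5:91074622-91093646), Areg (chr5:91139599-91148432) and Btc (chr5:91357261-91402994, minus strand), with gaps of 39.4, 46 and 208.8 kb. The sequences upstream of Areg, Btc and Egfr are shown because Areg and Btc, neighbours on chromosome 5, were higher and Egfr was lower in LC than in BC under every alternative tried. Each is the 250 bases before the RefSeq transcription start in GRCm38.p6, read 5′ to 3′ on the strand of the gene, at chr5:91139349-91139598 (plus strand) for Areg, chr5:91402995-91403244 (minus strand) for Btc and chr11:16751953-16752202 (plus strand) for Egfr. Capitals mark motifs that were searched on both strands: the cyclic AMP response element TGACGTCA, the AP-1 site TGANTCA, the oestrogen response element (GGTCA and TGACC with any 3 bases between), the TATA box TATAAA and the GC box GGGCGG.
Areg: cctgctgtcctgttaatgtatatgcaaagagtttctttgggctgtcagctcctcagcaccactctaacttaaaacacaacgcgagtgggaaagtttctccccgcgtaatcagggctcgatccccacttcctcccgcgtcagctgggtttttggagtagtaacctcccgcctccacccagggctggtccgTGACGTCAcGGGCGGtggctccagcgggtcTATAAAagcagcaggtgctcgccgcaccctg
Btc: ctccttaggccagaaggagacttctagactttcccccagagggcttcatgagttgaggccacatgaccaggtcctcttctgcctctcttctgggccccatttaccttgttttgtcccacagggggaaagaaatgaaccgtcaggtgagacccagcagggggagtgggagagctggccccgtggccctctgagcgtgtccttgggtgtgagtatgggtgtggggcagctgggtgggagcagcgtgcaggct
Egfr: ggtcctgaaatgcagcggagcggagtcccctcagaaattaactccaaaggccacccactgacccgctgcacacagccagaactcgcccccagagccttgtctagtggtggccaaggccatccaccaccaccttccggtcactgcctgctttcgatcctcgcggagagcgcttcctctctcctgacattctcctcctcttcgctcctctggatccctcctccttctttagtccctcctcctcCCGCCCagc
The Areg window held the cyclic AMP element with its first base 61 bases before the start, a GC box at 52 bases and a TATA box at 31 bases, none overlapping another. The Egfr window held a GC box on the minus strand, 9 bases before the start, and the Btc window held none of the 5 motifs. Of 32851 promoter windows of the same length, 1.55% held the cyclic AMP element, 6.75% the AP-1 site, 0.0639% the oestrogen response element, 12.4% the TATA box and 32.7% the GC box. Windows were found for 7 of the 10 genes. Erbb3 and Erbb4 were likewise higher in LC than in BC under every alternative. Erbb3 had no window, and that of Erbb4, not shown, held none of the 5 motifs. A match describes letters only and shows no binding.

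Between luminal and basal populations, most of the EGF family and ErbB genes that differed were higher on the luminal side, and Egfr was higher on the basal side. A gene was called at an adjusted p under 0.05 in edgeR's quasi-likelihood test, and since the labels do not tell whether the 2 libraries of a population come from different mice, p-values reflect only the spread among these samples, which may be technical. Between LC and BC, 6 of the 10 were called (5 higher and 1 lower in LC), against 24% of all genes tested (11.5% higher and 12.5% lower). Between TLC and TBC, again 6 were called (5 higher and 1 lower in TLC), against 13.6% (5.59% higher and 8.02% lower). Both comparisons named the same 6 genes: Areg, Btc, Erbb2, Erbb3 and Erbb4 were higher and Egfr was lower on the luminal side. The median log2 fold change of the 10 genes was 1.19 in LC against BC and 1.17 in TLC against TBC, where the medians of all genes were -0.04 and 0.03.

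The Tomato populations departed from their unlabelled counterparts in few of these genes. Between TLC and LC, 2 were called lower, Areg and Erbb4, where 8.22% of all genes were called and 3.77% were called lower. Between TBC and BC, edgeR called 0 of the 10 and 0% of all genes, 2 (Erbb3 and Erbb4) had an unadjusted p under 0.05, and DESeq2 called 0. THC stood between the lineages. Against BC, 4 of the 10 were called, with Areg, Btc and Erbb3 higher and Egfr lower, where 7.71% of all genes were called (5% higher and 2.72% lower). Against TBC, 4 were called, all higher (Areg, Btc, Erbb3 and Erbb4), where 3.72% of all genes were called and 2.57% were called higher. Against LC, 4 were called, with Ereg higher and Areg, Erbb3 and Erbb4 lower, where 12.9% of all genes were called (8.91% higher and 4% lower). Without the first THC library the count against LC was 0. Between THC and TLC, edgeR called 0 of the 10 against 1.61% of all genes, 2 (Areg and Erbb3) had an unadjusted p under 0.05, and DESeq2 called 1, Areg. BC, LC, TBC, THC and TLC each enter several of these comparisons, which are therefore not independent.

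**Figure D1:**
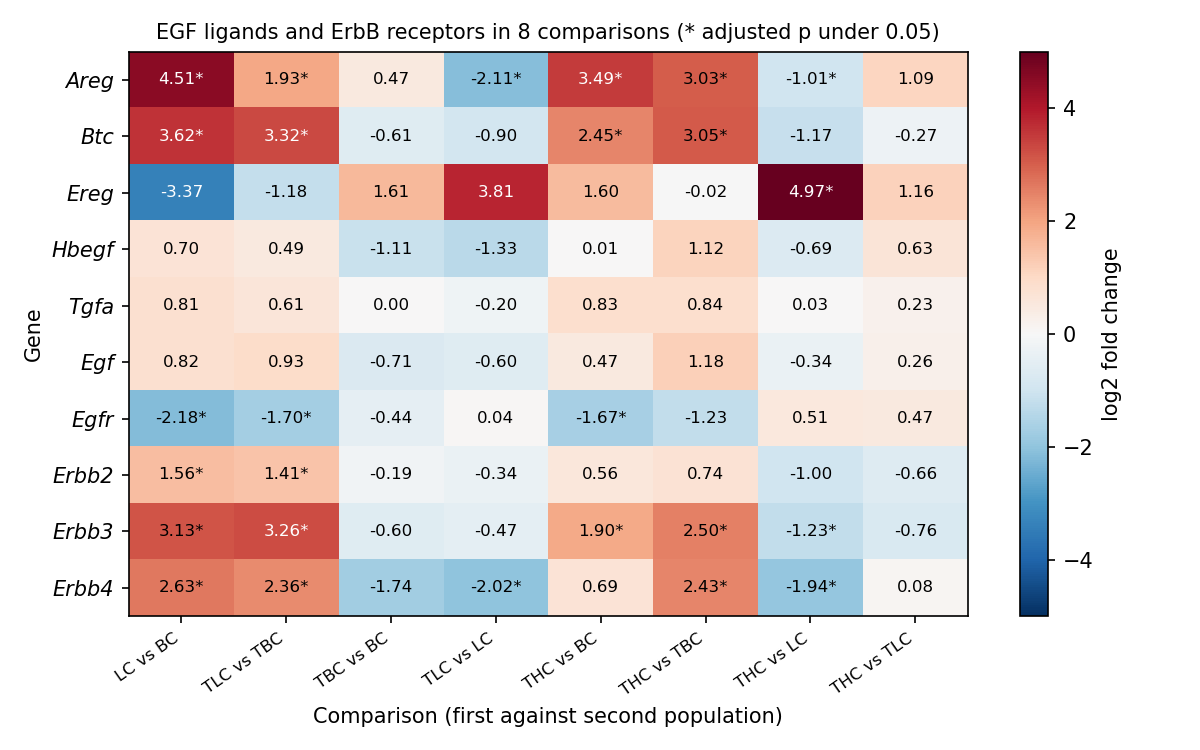
Log2 fold change of each gene (rows) in 8 comparisons (columns, the population named before "vs" against the one named after it), with colour from blue (lower) to red (higher) and an asterisk where the adjusted p was under 0.05. Areg and Erbb3 are red with an asterisk in LC vs BC, TLC vs TBC, THC vs BC and THC vs TBC, and Egfr is blue in the same 4 columns, without an asterisk in THC vs TBC.

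Areg, the gene of amphiregulin, stood at 18 and 18.5 CPM in BC, 31.3 and 19.6 in TBC, 225 and 187 in THC, 109 and 83.5 in TLC and 453 and 378 in LC. The populations fell in the order LC, THC, TLC, TBC and BC in both libraries, and no library of one population overlapped those of another. Areg was 22.7-fold higher in LC than in BC (log2 fold change 4.51, SE 0.29, edgeR adjusted p = 3.3e-06). It rose in THC against BC (3.49, SE 0.28, adjusted p = 2.1e-04) and against TBC (3.03, SE 0.27, adjusted p = 4.8e-04). TLC held 3.82-fold more than TBC (1.93, SE 0.26, adjusted p = 6.1e-04). These 4 calls stood under all 9 alternatives run for each, which are other scalings, filters and tools and each library left out in turn.

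The level of Areg in TLC nevertheless lay below that in LC, by 2.11 on the log2 scale (SE 0.26, 4.31-fold, adjusted p = 9.7e-04), and it was called under all 9 alternatives (adjusted p from 4.0e-14 to 0.01). Within library numbers 44 to 48 the difference was -2.05 and within 80 to 84 it was -2.17. In TBC against BC the difference was 0.47 (95% interval -0.11 to 1.05, adjusted p = 0.64). The contrast between these differences, TLC minus LC against TBC minus BC, was -2.58 (SE 0.37, adjusted p = 0.01), and Areg was the only one of the 10 called in it, where 0.911% of all genes were called and 0.359% were called lower. Each of the 13 alternatives called it, with adjusted p from 4.1e-10 to 0.045. Some genes of hormone sensing moved beside it. The summed level of 9 such genes, among them Esr1, Pgr, Prlr and Foxa1, was 6100 and 7240 CPM in LC, 1420 and 1760 in TLC, 2240 and 2210 in THC, 620 and 441 in TBC and 541 and 647 in BC. Prlr alone held 4250 and 4680 CPM of that sum in LC, and 718 and 781 in TLC. Of these 9, 4 were called lower in TLC than in LC (Prlr, Wnt4, Esr1 and Pgr) and 0 higher, where 3.77% of all genes were called lower. Foxa1, Cited1 and Gata3 were among the 5 not called. In the contrast of differences 4 of the 9 were called lower (median -1.84, where the median of all genes was 0.05). Whether fewer hormone-sensing cells in TLC had a part in the level of Areg was not tested.

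THC held more Areg than TLC in both libraries, with a log2 difference of 1.09 (95% interval 0.54 to 1.65, adjusted p = 0.058). It missed the threshold in edgeR and passed it without the low-count filter (adjusted p = 0.0012) and in DESeq2 (0.013), and adjusted p over the 9 alternatives ran from 0.0012 to 0.35. Against LC, Areg was 2.02-fold lower in THC (-1.01, SE 0.25, adjusted p = 0.022). That call was lost without the first LC library (0.1), the first THC library (0.067) or the second THC library (0.13), with adjusted p from 6.8e-04 to 0.13 over the alternatives.

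Btc, which encodes betacellulin, was scarce in basal cells. It stood at 1.57 and 1.36 CPM in BC, 1.26 and 0.733 in TBC, 4.26 and 10.6 in THC, 9.3 and 9.83 in TLC and 14.6 and 21.1 in LC. The BC and TBC values rest on 8 to 16 counts a library and that of the first THC library on 11. The basal populations lay below all the other libraries, and THC and TLC overlapped. Btc was 12.3-fold higher in LC than in BC (3.62, SE 0.49, edgeR adjusted p = 2.8e-04) and 10-fold higher in TLC than in TBC (3.32, SE 0.51, adjusted p = 0.0013), under all alternatives. It rose in THC against BC (2.45, SE 0.49, adjusted p = 0.015) and TBC (3.05, SE 0.51, adjusted p = 0.0084). The first of these was lost without the second BC library (0.12) or the second THC library (0.17), with adjusted p from 7.6e-05 to 0.17 over the alternatives. The second was lost without the second TBC library (0.11) or the second THC library (0.13), over a range of 1.3e-06 to 0.13. TLC and LC differed by -0.9 (95% interval -1.81 to 0, adjusted p = 0.23).

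Ereg, the gene of epiregulin, had its lowest values in LC, where the other ligands did not. It stood at 6.66 and 7.23 CPM in BC, 35.5 and 7.77 in TBC, 38.7 and 6.07 in THC, 14 and 5.19 in TLC and 0.217 and 1.01 in LC. The LC values rest on 2 and 14 counts. Both LC libraries lay below all 8 others, and in each Tomato population the first library lay well above the second, so that their second libraries fell near the level of BC. Ereg rose in THC against LC (4.97, SE 1.23, adjusted p = 0.033), with 6.5 within library numbers 44 to 48 and 2.37 within 80 to 84. That call was lost without the low-count filter (0.14), without the first THC library (0.12), the first LC library (0.15) or the second LC library (0.11), and adjusted p ran from 5.6e-04 to 0.15 over the alternatives. LC against BC (-3.37, adjusted p = 0.08) and TLC against LC (3.81, adjusted p = 0.098) did not pass. DESeq2 called both, at 0.025 and 0.015, and the stricter filter the first, at 0.048, in ranges over the alternatives of 0.025 to 0.28 and 0.015 to 0.33. TBC against BC was 1.61 (95% interval -0.65 to 3.88, adjusted p = 0.68). An antisense gene, Gm19610, shares 141 exon bases with Ereg and held 1 to 19 counts a library. Whether counting used the strand was not stated, so reads of these exons cannot be told apart.

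Hbegf, which encodes heparin-binding EGF-like growth factor, varied widely between the libraries of a population. It stood at 139 and 43.4 CPM in BC, 61.1 and 23.2 in TBC, 125 and 58.9 in THC, 71 and 46.2 in TLC and 194 and 100 in LC. The first library was the higher in each of the 5 populations, while every second library was the deeper. No comparison passed in edgeR without a block, and TLC against LC was -1.33 (95% interval -2.88 to 0.22, adjusted p = 0.3). Hbegf answers acute signals, and the summed level of 14 immediate-early genes was 21900 and 23100 CPM in BC, 16700 and 13400 in TBC, 11700 and 12100 in THC, 7990 and 9680 in TLC and 15900 and 16400 in LC. Whether acute signals had a part in the level of Hbegf was not tested.

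Tgfa, the gene of transforming growth factor alpha, stood at 37.6 and 17.3 CPM in BC, 31.4 and 22.8 in TBC, 67.4 and 31.2 in THC, 51.9 and 31 in TLC and 55.7 and 39.1 in LC. Here too the first library was the higher in all 5 populations. No comparison passed in edgeR with a low-count filter and without a block, and LC against BC was 0.81 (95% interval -0.22 to 1.83, adjusted p = 0.25). That one passed without the low-count filter at 0.03, in a range of 0.012 to 0.7 over the alternatives. With the set of library numbers as a block, edgeR called LC against BC (0.87, adjusted p = 0.012) and THC against BC (0.84, 0.032). Gm43917, on the opposite strand, shares 118 exon bases with Tgfa and held 4 to 37 counts.

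Egf itself was nearly absent. It stood at 0.784 and 1.02 CPM in BC, 0.631 and 0.513 in TBC, 1.16 and 1.35 in THC, 0.702 and 1.36 in TLC and 1.63 and 1.65 in LC, from 3 to 23 counts a library. LC lay above all other libraries, but no comparison passed, with LC against BC at 0.82 (95% interval -0.45 to 2.09, adjusted p = 0.36). Counts this low left wide intervals.

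**Figure D2:**
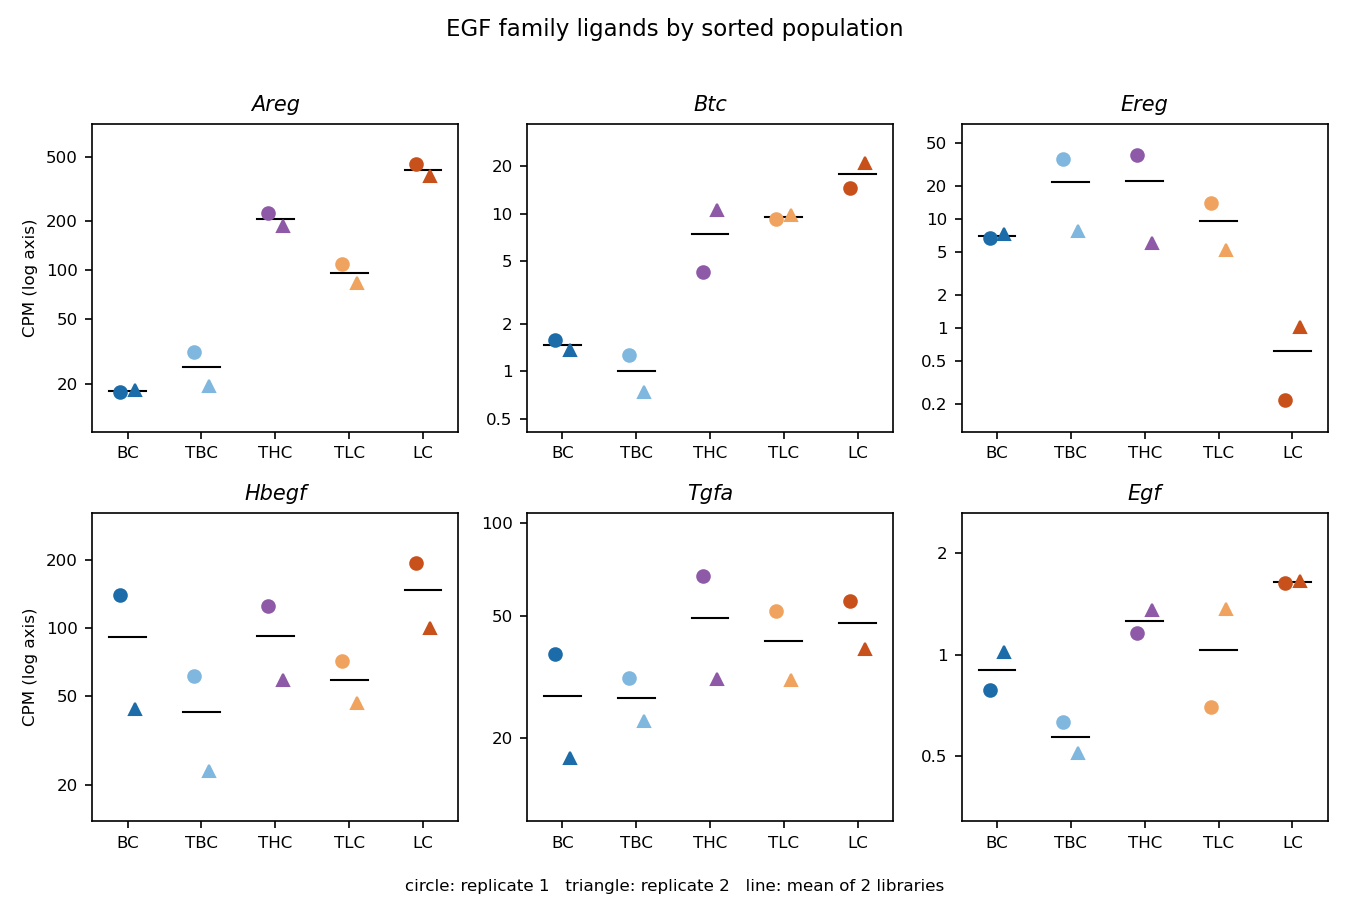
CPM on a log axis for the 6 ligands in the 5 populations, with a circle for replicate 1, a triangle for replicate 2 and a line at their mean. Areg is lowest in BC (18 and 18.5 CPM) and highest in LC (453 and 378), and lies higher in THC than in TLC. Ereg is lowest in LC at 0.217 and 1.01, and for Hbegf and Tgfa the circle lies above the triangle in every population.

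Egfr, the receptor that binds all 6 ligands, was the basal member of the family. It stood at 405 and 423 CPM in BC, 340 and 273 in TBC, 109 and 151 in THC, 100 and 87.8 in TLC and 124 and 59.6 in LC. BC and TBC lay above all libraries of the other populations, and LC overlapped THC and TLC. Egfr was 4.52-fold lower in LC than in BC (-2.18, SE 0.32, edgeR adjusted p = 5.2e-04), with -1.71 and -2.82 within the sets of library numbers, under all 9 alternatives. It was 3.26-fold lower in TLC than in TBC (-1.7, SE 0.32, adjusted p = 0.0041), a call lost without the second TLC library (0.054) in a range of 6.5e-10 to 0.054. It fell in THC against BC (-1.67, SE 0.32, adjusted p = 0.012), a call lost without the first THC library (0.095) or the second BC library (0.067), over a range of 5.5e-09 to 0.095. THC against TBC missed the threshold (-1.23, 95% interval -1.92 to -0.54, adjusted p = 0.057). It passed without the filter (3.3e-05) and in DESeq2 (0.0044), with adjusted p from 3.3e-05 to 0.32 over the alternatives. TLC and LC were close in mean, at 0.04 with a 95% interval of -0.65 to 0.72 (adjusted p = 0.97).

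Erbb3 was the luminal counterpart. It stood at 46.8 and 55.5 CPM in BC, 34.3 and 33.4 in TBC, 166 and 216 in THC, 314 and 336 in TLC and 371 and 527 in LC. No populations overlapped, and the order LC, TLC, THC, BC and TBC was the same in both libraries. Erbb3 was 8.75-fold higher in LC than in BC (3.13, SE 0.25, edgeR adjusted p = 9.6e-06) and 9.61-fold higher in TLC than in TBC (3.26, SE 0.25, adjusted p = 4.2e-05). THC exceeded BC 3.73-fold (1.9, SE 0.24, adjusted p = 0.0025) and TBC 5.67-fold (2.5, SE 0.25, adjusted p = 7.8e-04), and these 4 calls stood under all alternatives. THC lay below LC (-1.23, SE 0.24, adjusted p = 0.0063), a call lost without the first THC library (0.065) in a range of 2.2e-05 to 0.065. Among neighbours in this order, THC and BC were called apart, while LC and TLC (adjusted p = 0.27), TLC and THC (0.16) and BC and TBC (0.53) were not.

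Erbb2, the receptor known from breast cancer as HER2, stood at 39.8 and 62.9 CPM in BC, 41.4 and 49.2 in TBC, 62.8 and 87.9 in THC, 93.1 and 147 in TLC and 109 and 195 in LC. The second library was the higher in each population, the reverse of Hbegf and Tgfa. LC held 2.95-fold more than BC (1.56, SE 0.34, edgeR adjusted p = 0.0068), a call lost without the first BC library (0.057) or the second LC library (0.063) in a range of 3.2e-08 to 0.063. TLC held 2.65-fold more than TBC (1.41, SE 0.34, adjusted p = 0.019), lost without the first TBC library (0.13), the second TBC library (0.082) or the second TLC library (0.15) in a range of 2.2e-06 to 0.15. THC against LC was -1 (adjusted p = 0.079) and passed in 4 of 9 alternatives, with adjusted p from 0.0011 to 0.44. No neighbours in the order LC, TLC, THC, BC and TBC were called apart. Mien1 overlaps Erbb2 by 9 exon bases on the other strand.

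Erbb4 was the scarcest receptor and was highest in LC. It stood at 9.41 and 4.93 CPM in BC, 2.21 and 1.98 in TBC, 5.81 and 15.3 in THC, 9.82 and 11.5 in TLC and 50.7 and 36.2 in LC. LC lay above and TBC below all other libraries, and the first THC library rests on 15 counts. LC held 6.21-fold more than BC (2.63, SE 0.44, edgeR adjusted p = 0.0011), under all alternatives. TLC fell below LC (-2.02, SE 0.42, adjusted p = 0.014) but the call was lost without the first LC library (0.066), the first TLC library (0.12) or the second TLC library (0.069), in a range of 2.2e-06 to 0.12. THC fell below LC too (-1.94, SE 0.42, adjusted p = 0.012), lost without the first LC library (0.061) or the first THC library (0.067) in a range of 4.4e-06 to 0.067. TLC exceeded TBC (2.36, SE 0.47, adjusted p = 0.0063), lost without the second TBC library (0.074) in a range of 5.0e-07 to 0.074. THC exceeded TBC (2.43, SE 0.48, adjusted p = 0.017), lost without the first TBC library (0.11), the second TBC library (0.17) or the second THC library (0.25) in a range of 7.1e-07 to 0.25. TBC against BC was -1.74 (95% interval -2.8 to -0.69, adjusted p = 0.34). That difference passed without the low-count filter at 0.0061, in a range of 0.0061 to 1. In the contrast of differences Erbb4 stood at -0.28 (95% interval -1.69 to 1.14, adjusted p = 0.94). Its difference between TLC and LC was thus not shown to differ from that between TBC and BC, which itself was not called.

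**Figure D3:**
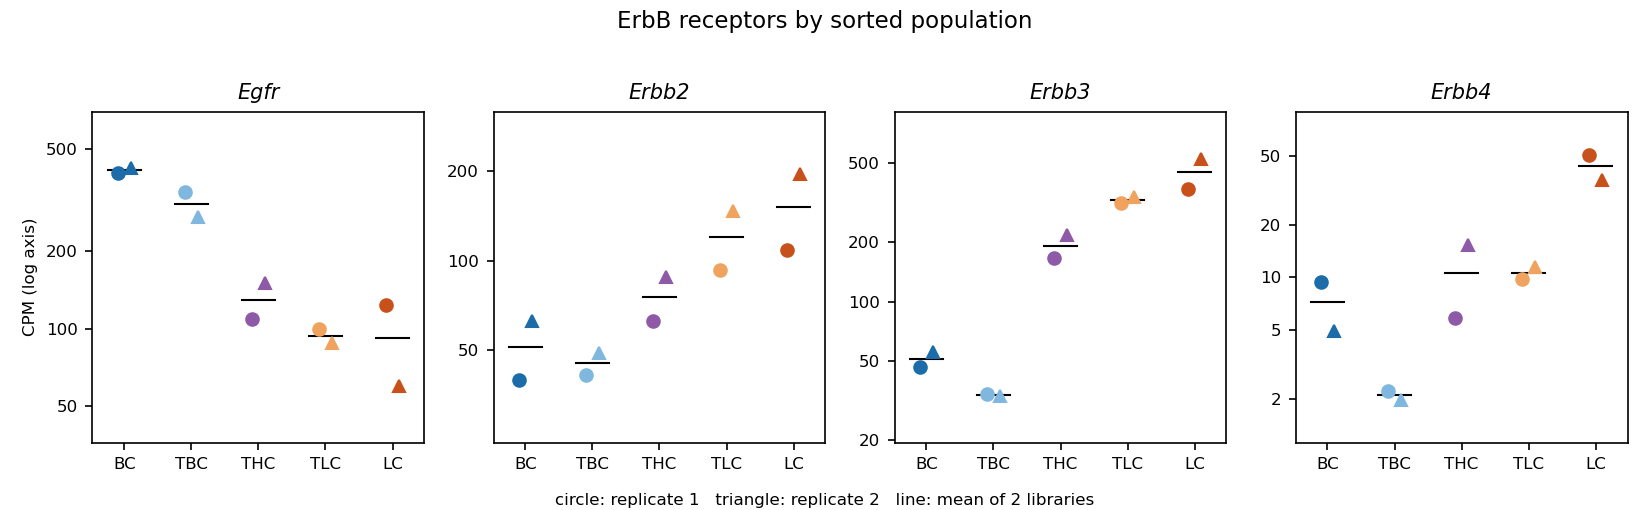
CPM on a log axis for the 4 receptors in the 5 populations, with a circle for replicate 1, a triangle for replicate 2 and a line at their mean. Egfr descends from 423 CPM in BC to 59.6 in LC, Erbb3 climbs from 33.4 in TBC to 527 in LC, and Erbb4 stands apart in LC at 50.7 and 36.2.

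Per length of the exons, the levels of different genes can be set side by side. Levels of the 6 ligands summed to 40.2 ± 15.8 CPM per kb in BC, 39.4 ± 18 in TBC, 204 ± 40.3 in THC, 102 ± 22.2 in TLC and 384 ± 58 in LC (SD, n = 2 each). Areg made up 89.2% ± 2.12 of that sum in LC, 83.9% ± 5.8 in THC, 77.8% ± 2.19 in TLC, 55% ± 8.13 in TBC and 40.6% ± 16.6 in BC (SD, n = 2 each). In BC the rest was mostly Hbegf, at 43.4% ± 17.5 (SD, n = 2), and in the first BC library Hbegf exceeded Areg, with 55.8% against 28.9%. In LC, Btc, Ereg and Egf held 1.06%, 0.0417% and 0.0383%, in that order, while Ereg held 11.8% ± 6.66 (SD, n = 2) of the ligand sum in TBC. Epgn and the neuregulins were left out of this sum, so the shares hold among the 6 ligands only. Mean Epgn was 2.19 CPM per kb in BC, 2.84 in TBC, 12 in THC, 5.89 in TLC and 43.4 in LC, where mean Hbegf was 30.4.

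Receptor levels summed to 55.5 ± 5.09 CPM per kb in BC, 41.5 ± 3.25 in TBC, 58.6 ± 12.5 in THC, 86.2 ± 9.19 in TLC and 115 ± 25 in LC (SD, n = 2 each). Egfr was 66% ± 3.96 of the receptor sum in BC and 65% ± 5.02 in TBC, 19.5% ± 0.212 in THC, 9.74% ± 1.93 in TLC and 7.57% ± 5.13 in LC (SD, n = 2 each). Erbb3 was 15.3% ± 0.424 in BC and 13.6% ± 0.778 in TBC, and 54.4% ± 1.41 in THC, 62.8% ± 3.75 in TLC and 64.4% ± 1.91 in LC (SD, n = 2 each). The share of Erbb2 was 14.7% to 30.4% in single libraries, with population means from 17.5% ± 4.03 in BC to 26.4% ± 5.66 in TLC (SD, n = 2 each). The ratio of Erbb3 to Egfr per length was 0.218 and 0.247 in BC, 0.19 and 0.23 in TBC, 2.86 and 2.7 in THC, 5.89 and 7.2 in TLC and 5.63 and 16.6 in LC. Both THC libraries thus lay between the basal and the luminal populations, and TLC overlapped LC.

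**Figure D4:**
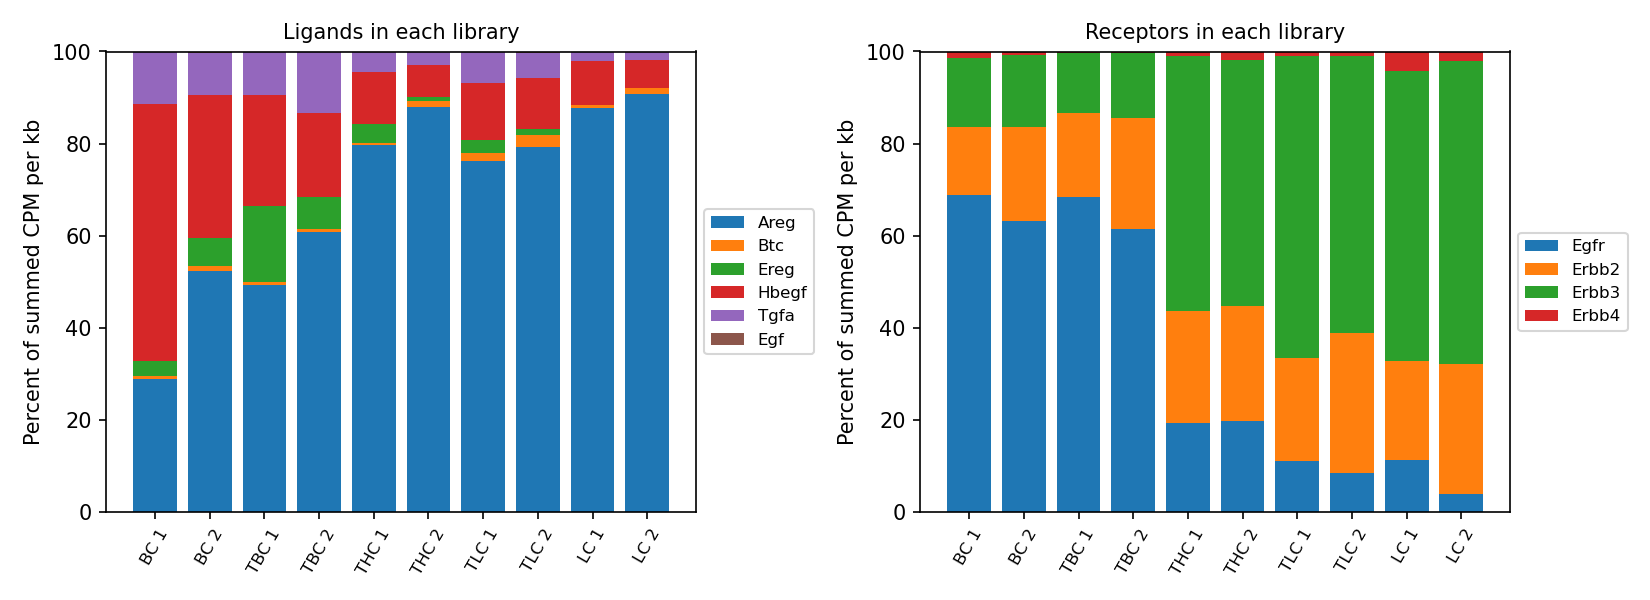
Stacked bars of the share of each of the 6 ligands (left) and each receptor (right) in the summed CPM per kb of its group, for the 10 libraries. Epgn and the neuregulins are left out. Areg fills 89.2% of the ligand bars in LC on average, and the receptor bars pass from mostly Egfr in BC and TBC (66% and 65%) to mostly Erbb3 in THC, TLC and LC (54.4%, 62.8% and 64.4%).

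The neuregulins and Epgn complete the ligands of the ErbB receptors, and 4 of these 5 genes were tested, since Nrg3 had 0 counts in all libraries. In LC against BC, 2 were higher (Epgn and Nrg4) and 2 lower (Nrg1 and Nrg2), where 24% of all genes were called. The call of Nrg4 (1.43, SE 0.35, edgeR adjusted p = 0.011) was lost without the first BC library (0.054), the second BC library (0.064) or the second LC library (0.17, at a log2 fold change of 0.7), in a range of 2.5e-04 to 0.17. Nrg1, the gene of the neuregulin that binds ERBB3 and ERBB4, stood at 81.3 and 43.5 CPM in BC, 174 and 118 in TBC, 197 and 94.6 in THC, 119 and 50 in TLC and 4.44 and 4.59 in LC. LC lay apart from every other population, and TLC stayed near BC. Nrg1 was lower in LC than in BC (-3.77, SE 0.56, edgeR adjusted p = 0.001), higher in TLC than in LC (4.21, SE 0.56, adjusted p = 0.0028) and higher in THC than in LC (4.99, SE 0.58, adjusted p = 8.5e-04), under all alternatives. Between TLC and TBC it differed by -0.79 (95% interval -1.87 to 0.28, adjusted p = 0.35). In the contrast of differences Nrg1 stood at 2.98 (adjusted p = 0.12).

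Epgn, the gene of epigen and neighbour of Ereg on chromosome 5, stood at 3.92 and 4 CPM in BC, 8.21 and 2.05 in TBC, 32.2 and 11.1 in THC, 14.4 and 6.92 in TLC and 60.3 and 96.4 in LC. It was higher in LC than in BC (4.3, SE 0.74, edgeR adjusted p = 0.0027) under all alternatives. It was lower in TLC than in LC (-2.91, SE 0.68, adjusted p = 0.032), a call lost without any of the 4 libraries compared, with adjusted p from 5.3e-10 to 0.16. Along the chromosome, therefore, Epgn, Areg and Btc were highest in LC and Ereg, which lies between Epgn and Areg, was lowest there.

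Of 6 genes of ligand shedding, 3 were higher and 1 was lower in LC than in BC (median 0.78), where 11.5% of all genes were higher and 12.5% lower. Adam10, a protease that frees Btc and Egf, stood at 110 and 147 CPM in BC, 205 and 191 in TBC, 376 and 387 in THC, 489 and 358 in TLC and 692 and 710 in LC, and was higher in LC than in BC (2.44, SE 0.25, edgeR adjusted p = 4.2e-05) and in THC than in BC (1.57, SE 0.24, adjusted p = 0.0052). Timp3, an inhibitor of such proteases, stood at 594 and 426 CPM in BC, 517 and 347 in TBC, 324 and 245 in THC, 183 and 115 in TLC and 117 and 66.8 in LC, and was lower in LC than in BC (-2.47, SE 0.36, adjusted p = 4.9e-04). These 3 calls stood under all alternatives. Adam17, the main protease for Areg, did not pass in any of the 8 comparisons. In TLC against LC, edgeR called 0 of the 6, where 8.22% of all genes were called, so this small count does not set the shedding genes apart.

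Of 8 genes listed as brakes on the receptors, 1 was higher and 2 were lower in LC than in BC (median -0.43), a count near the 24% of all genes called there. Lrig3 encodes a relative of LRIG1, a membrane protein that speeds the breakdown of ErbB receptors. Whether the product of Lrig3 acts as a brake in these cells was not tested. Lrig3 stood at 106 and 116 CPM in BC, 81.6 and 74.7 in TBC, 34.5 and 33.9 in THC, 29.6 and 26.8 in TLC and 7.37 and 6.17 in LC. The populations did not overlap, and their order was that of the mean level of Egfr. Lrig3 was lower in LC than in BC (-4.04, SE 0.22, edgeR adjusted p = 3.0e-06) but higher in TLC than in LC (2.06, SE 0.21, adjusted p = 4.0e-04), under all alternatives. Lrig1 itself stood at 223 and 246 CPM in BC, 157 and 214 in TBC, 90.6 and 119 in THC, 100 and 97.3 in TLC and 154 and 80.3 in LC. It was lower in LC than in BC (-1, SE 0.3, edgeR adjusted p = 0.029), a call that held in 6 of 9 alternatives.

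Of 20 relay genes from Grb2 to Stat3, 4 were higher and 3 lower in LC than in BC (median 0.14), 2 and 2 in TLC against TBC (0.18), and 1 and 1 in THC against BC (-0.15). Of all genes, 11.5% were higher and 12.5% lower in the first of these comparisons, 5.59% and 8.02% in the second and 5% and 2.72% in the third, so these small counts do not set the relay genes apart. Of 15 feedback and response genes of the ERK cascade, 2 were higher and 7 lower in LC than in BC (median -0.65), where 11.5% of all genes were higher and 12.5% lower. In TLC against LC, 2 were higher and 0 lower (0.01), where 8.22% of all genes were called. Those 2 were Etv5 and Ccnd1. Etv5, an ETS factor induced by ERK, stood at 42.9 and 47.7 CPM in BC, 66.3 and 158 in TBC, 56.6 and 85.2 in THC, 64.2 and 77.3 in TLC and 12.7 and 20.1 in LC. It was higher in TLC than in LC (2.1, SE 0.4, edgeR adjusted p = 0.01), lost without the first LC library (0.058), the first TLC library (0.056) or the second TLC library (0.056) in a range of 1.2e-12 to 0.058. Ccnd1, the gene of cyclin D1, stood at 22.3 and 23.6 CPM in BC, 51.8 and 89.1 in TBC, 242 and 284 in THC, 548 and 516 in TLC and 210 and 203 in LC. It was highest in TLC, above LC by 1.37 (SE 0.25, adjusted p = 0.008), a call lost without the first TLC library (0.051) or the second LC library (0.054) in a range of 2.5e-06 to 0.054. Of the 14 immediate-early genes, 6 were lower and 0 higher in LC than in BC (median -0.83), and 2 were lower and 1 higher in TLC than in LC (-0.78), against the same shares of all genes.

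**Figure D5:**
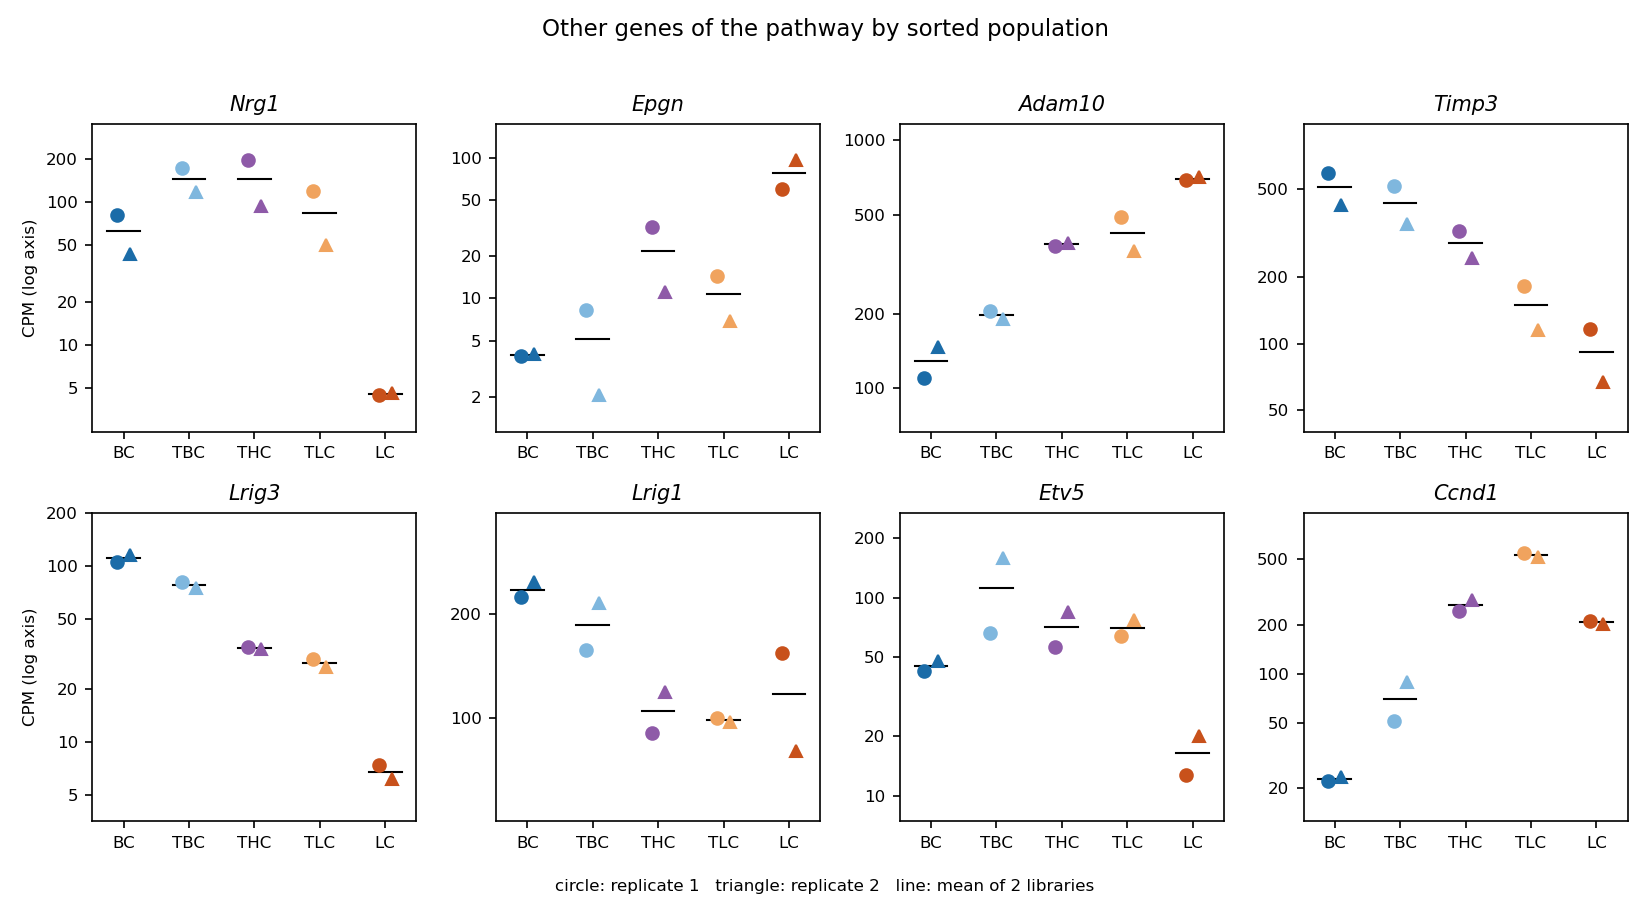
CPM on a log axis for 8 further genes of the pathway in the 5 populations, with a circle for replicate 1, a triangle for replicate 2 and a line at their mean. Nrg1 stands apart only in LC (4.44 and 4.59 CPM), Adam10 and Epgn are highest in LC, Timp3 and Lrig3 descend from BC to LC, and Ccnd1 peaks in TLC at 548 and 516.

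The genes whose pattern was most like that of each member were ranked by Pearson's r of log2 CPM over the 10 libraries, which share lineage and depth, so the values are a description. For Areg these were Lcp1 (0.99), Fxyd2 (0.985) and Iba57 (0.976). For Egfr they were Irs2 (0.989) and Prelp (0.986), and for Erbb3 Rhov (0.996), Bcl2l14 (0.993) and Myo5c (0.991). For Btc they were Tmprss13 (0.988), Pik3cg (0.987) and Cgn (0.985), and Pik3cg was also the fourth for Erbb3 (0.99). Nrg1 was the fifth for Ereg (0.938). For Hbegf the nearest were Zbp1 (0.965), Csf3 (0.957) and Rcan1 (0.949). Within the family, Btc and Erbb3 varied together most closely (0.98), Egfr ran opposite to Erbb3 (-0.93) and Btc (-0.89), and Ereg ran opposite to Erbb4 (-0.81).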

How the data were processed

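The authors deposited raw counts for Ensembl genes, made with STAR and HTSeq on GRCm38 (mm10) per the submitters' processing notes. Not given in the sources used here are versions, the annotation release and the strand setting. Per the labels' protocols, cells were sorted by flow cytometry and libraries made with the Ovation Solo kit. Identifiers were matched to GENCODE M21 (49412 of 49671). The summary entries of HTSeq were left out of library sizes. Reads without a feature were 12.6% to 30.8% of each library, and reads without a unique alignment 14.6% to 43%, highest in the first THC library.

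Genes were filtered with filterByExpr (minimum count 10), scaled by TMM and tested with edgeR 4.0.16 (R 4.3.3) by the quasi-likelihood F-test on all 10 libraries, with 1 coefficient per population, 5 residual degrees of freedom and a common dispersion of 0.0715. P-values were adjusted by Benjamini-Hochberg over 19757 genes. Log2 CPM used a prior count of 2. Libraries of a population differed beyond counting error, at a chi-square of 19.6 to 34.5 for each degree of freedom. Alternatives were RLE factors, DESeq2 1.42.0, no filter, a stricter filter (5 CPM in 2 libraries), the library-number set as a block and each library left out. The scripts were tested on simulated data. Named were all 10 genes and, in each comparison, up to 4 called pathway genes per list with the largest changes, if the higher population reached 10 CPM. The 5 tested genes with the highest correlation to each of the 10 were taken, of which some are named. Adam17, Nrg3 and, in LC against BC, Nrg2 fall outside this rule and were picked once their values had been seen. The genes and lists were chosen with earlier results of these data known.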

Additional observations from a re-analysis of the deposited data

Results flagged for a closer look

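The difference of Areg between the Tomato and the unlabelled population was not the same in luminal and basal cells. The contrast, TLC minus LC against TBC minus BC, was -2.58 on the log2 scale (edgeR adjusted p = 0.01), and it was picked out because this test of the difference itself passed. Areg lay lower in both TLC libraries than in both LC libraries, and higher in both TBC libraries than in both BC libraries, although the latter difference did not pass.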

How the results depend on the processing

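Of the changes of the 10 genes over all comparisons and alternatives, 787 kept their side of the threshold, 29 lost a call, 25 gained one and 0 called values reversed. For the further pathway genes, whose alternatives were chosen after seeing the data, 828 kept it, 153 lost it and 0 reversed. The number of the 10 genes called in TBC against BC was 1 without the low-count filter (Erbb4). In THC against TLC it was 1 without that filter and 1 in DESeq2 (Areg both times), and 2 with the library-number set as a replicate block. In THC against TBC the replicate block gave 7. With that block Hbegf was called in LC against BC (edgeR adjusted p = 0.017), TLC against LC (0.0043) and THC against TBC (0.011). Tgfa was called in LC against BC (0.012) and THC against BC (0.032), and Egfr in THC against TBC (0.035). Erbb2 was called in THC against LC (0.0038) and THC against TBC (0.041), and Btc in THC against LC (0.048). In THC against TLC the block called Areg (0.0095) and Erbb3 (0.044). Leaving out a library in turn gave 5 to 6 for LC against BC, 0 to 0 for TBC against BC, 1 to 2 for TLC against LC, 2 to 4 for THC against BC, 0 to 4 for THC against LC, 2 to 4 for THC against TBC, 0 to 0 for THC against TLC, 4 to 6 for TLC against TBC and 1 to 1 for the contrast of differences. Differences between the sets of library numbers correlated at -0.01 to 0.42 over pairs of populations. They were over 0.1 in 8 of 10 pairs but not for BC with TLC or TBC with TLC, so some variation is shared within sets. The labels state no pairing, and the main test treated the libraries as unpaired, which leaves this shared variation in its spread. Over all genes, TBC against BC had 0 calls in edgeR (1725 at an unadjusted p under 0.05), 398 without the filter, 205 in DESeq2, 33 with the replicate block and 144 without the first TBC library. THC against TLC had 318, 1143, 782 and 683 calls in the same settings and 0 without the second TLC library. THC against TBC had 734, 1839, 1374 and 1510, and as few as 165 without the first TBC library. The contrast of differences had 180, 725, 503 and 425, and 36 without the second TBC library. Without the filter and with the block, TLC against LC had 2561 and 2527 against 1625 (467 without the first TLC library) and THC against BC 2707 and 2800 against 1524 (247 without the second BC library). With a library left out, LC against BC fell from 4742 to 3141 (second LC library), THC against LC from 2551 to 1141 (second LC library) and TLC against TBC from 2689 to 1491 (second TLC library). Such fits have fewer samples, and the lone library is assumed to vary like the other populations. Depth limits Egf, Btc in basal cells and Ereg in LC.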
